A study of Homo sapiens with 28 samples.

Results

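The long MBNL1 knockdown in MOLM13 cells was described from 6 of the 28 RNA-seq libraries, namely 3 with the lentiviral short hairpin shMBNL1-64 and 3 with the non-targeting hairpin shNT, all harvested at day 12 and chosen by their labels. MOLM13 is an acute myeloid leukemia line that carries the MLL-AF9 fusion, and both groups of cells were transduced and selected with puromycin. The study gives these libraries as biological triplicates with shNT controls of their own, sequenced on a NovaSeq instrument. The comparison rests on 1 hairpin in 1 cell line, so an effect of the hairpin on RNAs other than MBNL1 cannot be told apart from an effect of MBNL1. The remaining libraries hold an earlier harvest of the same hairpin, called day 4 after the name in the study's supplement, another MBNL1 hairpin and a second leukemia line, and are used only where named.

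MBNL1 belongs to the muscleblind family of zinc finger proteins, which bind RNA at short pyrimidine-GC-pyrimidine motifs and govern the choice of alternative exons. Bound upstream of an exon the protein is known to favour skipping, and bound downstream it favours inclusion. Its loss of function, through trapping on expanded repeats, causes the missplicing of myotonic dystrophy. In leukemias with a fusion of MLL the gene is highly expressed.

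MBNL1 itself was measured first. It stood at 4.13, 4.65 and 4.42 RPKM (reads per kilobase of transcript, scaled to the mapped reads) in the shMBNL1-64 libraries and at 26.5, 26.9 and 25.6 RPKM in the shNT libraries. Knockdown therefore left 16.7% of control, 4.4 ± 0.26 against 26.4 ± 0.657 RPKM (means ± SD of 3 libraries; log2 difference -2.34, SE 0.05, adjusted p = 1.96e-07, limma). Groups did not overlap, and the exact two-sided permutation test gave 0.1, the smallest p that 3 against 3 libraries allow. The fold at day 4 was of like size, -2.45 on the log2 scale. The paralogs were scarce in both groups and fell below the minimum for a test. MBNL2 stood at 0.634 ± 0.0872 against 0.515 ± 0.0171 RPKM and MBNL3 at 0.229 ± 0.0175 against 0.156 ± 0.0152 RPKM (n = 3 each).

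The libraries separated by hairpin. The first principal component of log2 expression held 80.3% of the variance and parted the groups, and correlations between libraries were 0.9965 to 0.9978 within groups and 0.9814 to 0.9848 between them. Relative depth, read from the step between low values, ranged from 0.812 to 1.24 of the mean, while absolute depth is unknown. Of 10 markers fixed for a myeloid leukemia line 8 reached 1 RPKM, all but CD14 and CEBPA, and their summed level was 4139 to 4412 RPKM with shMBNL1-64 and 1204 to 1356 RPKM with shNT. Most of this sum was LYZ (3643 to 3912 against 731 to 883 RPKM), so it does not describe the other markers. MPO was also higher (75.7 ± 9.07 against 7.22 ± 0.948 RPKM), while CD33 was 18.3 ± 0.377 against 16.7 ± 0.502 RPKM. FLT3 (107 ± 7.2 against 187 ± 1.9 RPKM) and ITGAM (4.71 ± 0.833 against 17 ± 1.29 RPKM) were lower. None of 6 B cell markers reached 1 RPKM (sums 0.589 to 0.942 against 0.452 to 0.592 RPKM). Of 6 T and NK cell markers only NKG7 did (69.5 ± 6.57 against 49.4 ± 0.547 RPKM), of 12 erythroid and megakaryocytic markers only GP9, and of 8 fibroblast and epithelial markers only KRT18. Genes defining T cells, red cells and fibroblasts, such as CD3E, HBB and COL1A1, stayed below 1 RPKM in both groups.

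Expression was tested for 10094 genes with a mean of at least 1 RPKM in either group. A gene below 1 RPKM in 1 group entered only through the group where it was higher. This held for CAMP and SIGLEC1 among rises and for CCL2 among falls. Log2 fold changes are differences of log2(RPKM + 1), knockdown minus shNT, which understates the change of low genes. A gene was called at p of 0.01 or less with at least a 1.5-fold change. By this rule 557 genes (5.52% of those tested) were called, 330 higher (3.27%) and 227 lower (2.25%). With the adjusted p below 0.05 in place of the raw one, 560 genes (5.55%) met the fold minimum. At an adjusted p under 0.05 without a minimum fold, 3071 genes were higher (30.4%) and 1947 lower (19.3%), so that small shifts passed for nearly every other gene. This split depended on scaling. The median log2 fold change of all tested genes was 0.04, and when libraries were rescaled by the median ratio the counts were 2437 higher and 2476 lower. Where the spread was estimated over all 28 libraries, 485 genes passed at any size. Larger changes are therefore described first.

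**Figure D1:**
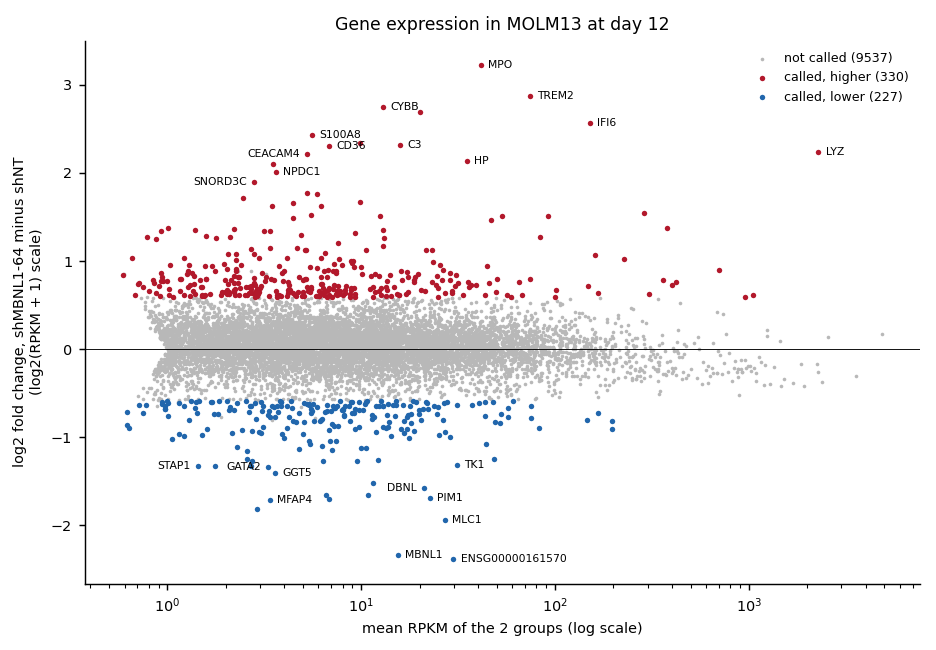
Log2 fold change (shMBNL1-64 minus shNT, log2(RPKM + 1) scale, vertical axis) against the mean RPKM of both groups (horizontal axis, log scale) for each of the 10094 tested genes, with called genes in red (330 higher) and blue (227 lower) and some of the named genes labelled. MPO, TREM2 and CYBB lie highest, while MBNL1 and ENSG00000161570 lie lowest.

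Genes of myeloid granules and phagocytes rose the most. MPO, the peroxidase of neutrophil azurophil granules, stood at 72.2, 68.9 and 86 RPKM with shMBNL1-64 and at 7.36, 8.1 and 6.21 RPKM with shNT, a 10.5-fold ratio of means (log2 fold change 3.22, SE 0.10, adjusted p = 9.94e-07, limma). The lowest knockdown library lay far above the highest control. LYZ, which encodes lysozyme, was the most abundant gene of this kind, at 3912, 3643 and 3758 RPKM against 731, 791 and 883 RPKM (log2 fold change 2.24, SE 0.07, adjusted p = 9.04e-07, limma). S100A8 and S100A9 encode the subunits of calprotectin, the calcium-binding protein of granulocytes and monocytes. S100A9 rose from 4.71 ± 0.548 to 35.7 ± 3.21 RPKM and S100A8 from 1.09 ± 0.48 to 10.1 ± 0.232 RPKM (n = 3 each; adjusted p = 9.04e-07 and 1.22e-05, limma). ELANE, the neutrophil elastase gene, rose from 489 ± 23.7 to 917 ± 77.8 RPKM and CAMP, the cathelicidin gene, from 0.509 ± 0.136 to 2.66 ± 0.494 RPKM. CTSG, the cathepsin G gene, went the other way, 79.9 ± 0.982 against 107 ± 3.42 RPKM, and passed the adjusted test without reaching 1.5-fold (log2 fold change -0.42, adjusted p = 0.000141, limma). Of 15 tested genes of neutrophil granules and granulocytes 7 were called higher and 0 lower, with 9 and 2 at an adjusted p under 0.05, and their median log2 fold change was 0.52 beside 0.04 over all tested genes. The list holds 22 genes, and those below 1 RPKM in both groups were not tested. CAMP passed this filter only through the knockdown group, so such counts and medians can lean toward rises.

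Several receptors of monocytes and macrophages rose, while integrins moved in both directions. TREM2, a lipid-sensing receptor of macrophages, stood at 131, 132 and 131 RPKM against 17.5, 18.4 and 15.8 RPKM, 7.64-fold higher (log2 fold change 2.87, SE 0.06, adjusted p = 1.96e-07, limma). CD36, a scavenger receptor, rose from 1.63 ± 0.148 to 12 ± 0.906 RPKM and SIGLEC1, a sialic acid receptor of macrophages, from 0.71 ± 0.303 to 6.29 ± 1.05 RPKM (adjusted p = 7.44e-07 and 2.25e-05, limma). CSF1R, the receptor for macrophage colony-stimulating factor, rose from 11 ± 0.824 to 21.2 ± 1.53 RPKM and FCGR1A, the high-affinity Fc receptor gene, from 13.7 ± 0.231 to 25.5 ± 1.1 RPKM. ITGAM, which encodes the integrin chain CD11b, fell. It stood at 5.04, 5.33 and 3.76 RPKM with shMBNL1-64 and at 17, 15.7 and 18.3 RPKM with shNT (log2 fold change -1.66, SE 0.11, adjusted p = 2.13e-05, limma). Of 18 tested members of the monocyte and macrophage list 9 were called higher and 2 lower (ITGAM and ITGAX), with 11 and 3 at an adjusted p under 0.05 and a median of 0.52. This list holds 39 genes, and those below 1 RPKM in both groups were not tested. Of 16 leukocyte integrin and adhesion genes 0 were called higher and 4 lower, with 4 and 8 at an adjusted p under 0.05 and a median of -0.23. ITGB2, the partner chain of ITGAM and ITGAX, was among those higher at an adjusted p (134 ± 2.92 against 107 ± 2.13 RPKM, adjusted p = 0.000467, limma), as were ITGB7 and ITGA5. The called members other than ITGAM and ITGAX were ICAM1, an integrin ligand (1.89 ± 0.159 against 4.31 ± 0.305 RPKM), and ITGA4, the chain that binds VCAM1 (19 ± 0.301 against 30.7 ± 1.73 RPKM).

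The subunits of the phagocyte NADPH oxidase moved in opposite directions. CYBB, its membrane-bound catalytic subunit, stood at 23.6, 21.8 and 24.6 RPKM against 2.3, 2.4 and 3.21 RPKM (log2 fold change 2.75, SE 0.09, adjusted p = 1.03e-06, limma). RAC2, the small GTPase of the complex in blood cells, fell to 28.7, 29.4 and 26.9 from 71.2, 69.6 and 65.1 RPKM (log2 fold change -1.25, SE 0.05, adjusted p = 3.65e-06, limma). Of 8 tested members 2 were called higher and 1 lower, and the list's median was 0.01, which became -0.03 after rescaling. Genes of HLA class II were likewise split. CD74, the invariant chain, fell from 59.8 ± 1.04 to 28 ± 3.62 RPKM and HLA-DRA from 2.42 ± 0.37 to 1.28 ± 0.364 RPKM, while HLA-DQB1 rose from 0.576 ± 0.05 to 1.75 ± 0.199 RPKM. Reads of HLA genes can be shared between near-identical copies, so their levels are uncertain.

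Among secreted and interferon-related genes the complement gene C3 rose to 22.8, 28.5 and 30.4 RPKM from 4.38, 4.46 and 4.99 RPKM, and HP, the haptoglobin gene, to 57.8 ± 0.637 from 12.4 ± 0.655 RPKM (adjusted p = 4.1e-06 and 2.2e-07, limma). HP has the near-identical copy HPR, with which reads may be shared. IFI6, an interferon-induced gene, varied between libraries of both groups, at 353, 212 and 215 RPKM with shMBNL1-64 and 41.4, 29.8 and 58.7 RPKM with shNT (log2 fold change 2.57, SE 0.26, adjusted p = 0.000164, limma). The first knockdown library was also the highest for ISG15 (23.4, 14.3 and 14.7 against 9.37, 7.63 and 12.1 RPKM) and for IFI27 (4.34, 2.95 and 2.18 against 0.764, 0.606 and 1.5 RPKM). Of 24 tested interferon response genes 4 were called higher (IFI6, IFI27, ISG15 and IRF9) and 0 lower, with 9 and 1 at an adjusted p under 0.05. Among all tested genes 3.27% were called higher and 2.25% lower, with 30.4% higher and 19.3% lower at an adjusted p under 0.05. The 9 higher are thus near the share of all genes, and rescaling turned the split to 6 and 2. BST2, the tetherin gene, was the one lower at an adjusted p before rescaling (51.5 ± 4.66 against 76.8 ± 4.12 RPKM). Of 9 tested cytokines and chemokines CXCL8 was called higher (3.26 ± 0.355 against 1.41 ± 0.206 RPKM) and CCL2 lower (0.349 ± 0.0941 against 1.75 ± 0.382 RPKM). At an adjusted p under 0.05, 2 of these were higher and 3 lower. Only 27 of the 28 listed genes were found by symbol, so a member may be missing.

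The gene with the lowest log2 fold change carries no symbol in the annotation and was chosen after its values were seen. ENSG00000161570 stood at 8.85 ± 0.837 against 50.4 ± 3.55 RPKM (log2 fold change -2.38, SE 0.07, adjusted p = 9.04e-07, limma). Among genes with a symbol, next after MBNL1 came MLC1, a membrane protein gene, at 10.5, 10.9 and 10.2 against 43.5, 48.3 and 39 RPKM (log2 fold change -1.94). ARL2, a small GTPase gene of tubulin folding, fell from 10.9 ± 0.197 to 2.67 ± 0.22 RPKM, and DBNL, which encodes an actin-binding adaptor, from 32.1 ± 1.26 to 10.1 ± 0.593 RPKM (adjusted p = 9.04e-07 and 1.03e-06, limma). ALDH1A3, a retinaldehyde dehydrogenase gene, fell from 10.5 ± 1.16 to 2.63 ± 0.467 RPKM. These 4 genes were also lower at day 4, by 1.45 to 2.39 on the log2 scale. MFAP4, a microfibril gene, fell from 5.72 ± 0.412 to 1.06 ± 0.136 RPKM at day 12. A rise to be read with care is that of SNORD3C, a small nucleolar RNA with near-identical copies, at 4.45, 2.46 and 8.4 RPKM against 0.263, 0.788 and 0.518 RPKM.

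Genes of growth and of the leukemic program mostly moved less. PIM1, a serine/threonine kinase gene downstream of STAT5, stood at 12.4, 10.1 and 8.19 RPKM against 33.7, 35.5 and 35.1 RPKM (log2 fold change -1.69, SE 0.12, adjusted p = 2.99e-05, limma). FLT3, the receptor tyrosine kinase gene, fell from 187 ± 1.9 to 107 ± 7.2 RPKM, and ETV5 and IL3RA, an ETS factor and the interleukin-3 receptor chain, fell by 0.70 and 0.60 on the log2 scale. Of 18 tested cytokine receptor and STAT5 signalling genes 1 was called higher (CSF1R) and 4 lower, beside 3.27% and 2.25% of all tested genes. At an adjusted p under 0.05, 6 of them were higher and 10 lower. GATA2, a transcription factor of hematopoietic progenitors, fell from 5.16 ± 0.489 to 1.44 ± 0.0577 RPKM (log2 fold change -1.34, adjusted p = 5.5e-06, limma). A list of stem and progenitor genes leaned the other way. Of its 5 tested members 0 were called higher and 1 lower, yet 4 were higher and 1 lower at an adjusted p under 0.05, with a median of 0.21. Of 18 myeloid transcription factors 2 were called lower (GATA2 and ID1) and 0 higher, with 6 lower and 7 higher at an adjusted p under 0.05. Their median was 0.06. Of 19 tested genes known as targets of MLL fusions FLT3 alone was called, with 6 higher and 7 lower at an adjusted p under 0.05 and a median of -0.10. RUNX1 was 3.94 ± 0.208 against 2.44 ± 0.0685 RPKM and MYC 54.3 ± 0.865 against 43.1 ± 1.82 RPKM. Both were higher at the adjusted rule but short of 1.5-fold on the log2(RPKM + 1) scale. No gene of 28 in a list of MLL, SETD1 and DOT1L chromatin proteins was called, and 12 were higher and 5 lower at an adjusted p under 0.05. KMT2D, at 5.49 ± 0.366 against 3.33 ± 0.159 RPKM, just missed the fold on that scale (log2 fold change 0.58), with a ratio of means of 1.65. With the spread taken over all 28 libraries PIM1 and FLT3 no longer passed at an adjusted p under 0.05 (PIM1 expression, adjusted p = 0.159, and FLT3 expression, adjusted p = 0.0637, limma) and GATA2 did (GATA2 expression, adjusted p = 0.00533).

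Sterol and lipid synthesis genes leaned lower. DHCR7, which catalyses the last step of cholesterol synthesis, stood at 9.38, 9.36 and 9.5 RPKM against 17.9, 18.3 and 18.1 RPKM (log2 fold change -0.88, SE 0.04, adjusted p = 4.09e-06, limma). SREBF2, the transcription factor that drives the pathway, fell from 38.1 ± 0.726 to 24.3 ± 1.03 RPKM. Of 23 cholesterol synthesis genes 0 were called higher and 4 lower, 18 were lower and 0 higher at an adjusted p under 0.05, and the median was -0.35. Among 12 genes of sterol export and fatty acid synthesis the called ones were FADS2, a desaturase (3.18 ± 0.324 against 7.55 ± 0.331 RPKM), SREBF1 (18.8 ± 2.36 against 38.3 ± 1.48 RPKM) and SCD (29 ± 1.68 against 45.3 ± 1.42 RPKM), all lower. Of this list 2 genes were higher and 8 lower at an adjusted p under 0.05, with a median of -0.25. When the spread was estimated over all 28 libraries DHCR7 expression and SREBF1 expression no longer passed (adjusted p = 0.0693 and 0.222, limma), whereas SREBF2 expression did (adjusted p = 0.0116).

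Small shifts in 1 direction ran through the ribosomal proteins. Among all tested genes 3.27% were called higher and 2.25% lower, with 30.4% higher and 19.3% lower at an adjusted p under 0.05. Of 75 tested cytoplasmic ribosomal protein genes 0 were called, yet 68 were lower and 0 higher at an adjusted p under 0.05, with a median of -0.25, and after rescaling 72 were lower with a median of -0.30. RPS16, for example, stood at 1294, 1273 and 1211 RPKM against 1669, 1706 and 1678 RPKM. Under the spread of all 28 libraries RPS16 expression no longer passed (adjusted p = 0.149, limma). Of 41 DNA replication and G1/S genes 2 were called lower, TK1, the cytosolic thymidine kinase gene (17.4 ± 0.472 against 44.8 ± 1.49 RPKM), and CDC6, a replication licensing gene (16.8 ± 1.03 against 27.5 ± 1.32 RPKM). At an adjusted p under 0.05, 22 of these 41 were lower and 3 higher. Of 37 G2/M genes PRC1, a spindle midzone gene, was called lower, and 15 were lower and 2 higher at an adjusted p. Of 47 oxidative phosphorylation subunits 17 were higher at an adjusted p, near the share of all tested genes, and 4 lower. Rescaling turned this split to 7 and 5. Of 33 lysosomal genes 3 were called higher, among them GLB1, which encodes a glycosidase, and CTSD, the cathepsin D gene, and 16 were higher and 4 lower at an adjusted p. Of 23 genes of the integrated stress response SLC7A11, the cystine transporter gene, was called higher (5.88 ± 0.424 against 2.37 ± 0.3 RPKM) and CHAC1, a glutathione-degrading enzyme gene, lower (4.16 ± 0.333 against 8.04 ± 0.417 RPKM). Of 21 p53 targets DDB2, a DNA damage sensor gene, was called lower, while none of 13 BCL2 family genes, 4 CDK inhibitors or 28 ribosome biogenesis genes was called, with 6, 1 and 1 higher and 1, 3 and 4 lower at an adjusted p under 0.05. BMF of the BCL2 family missed the fold on the log2(RPKM + 1) scale (0.56), though its ratio of means was 1.93. In bulk RNA a change in the share of cells of one state and a change of RNA per cell cannot be told apart.

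**Figure D2:**
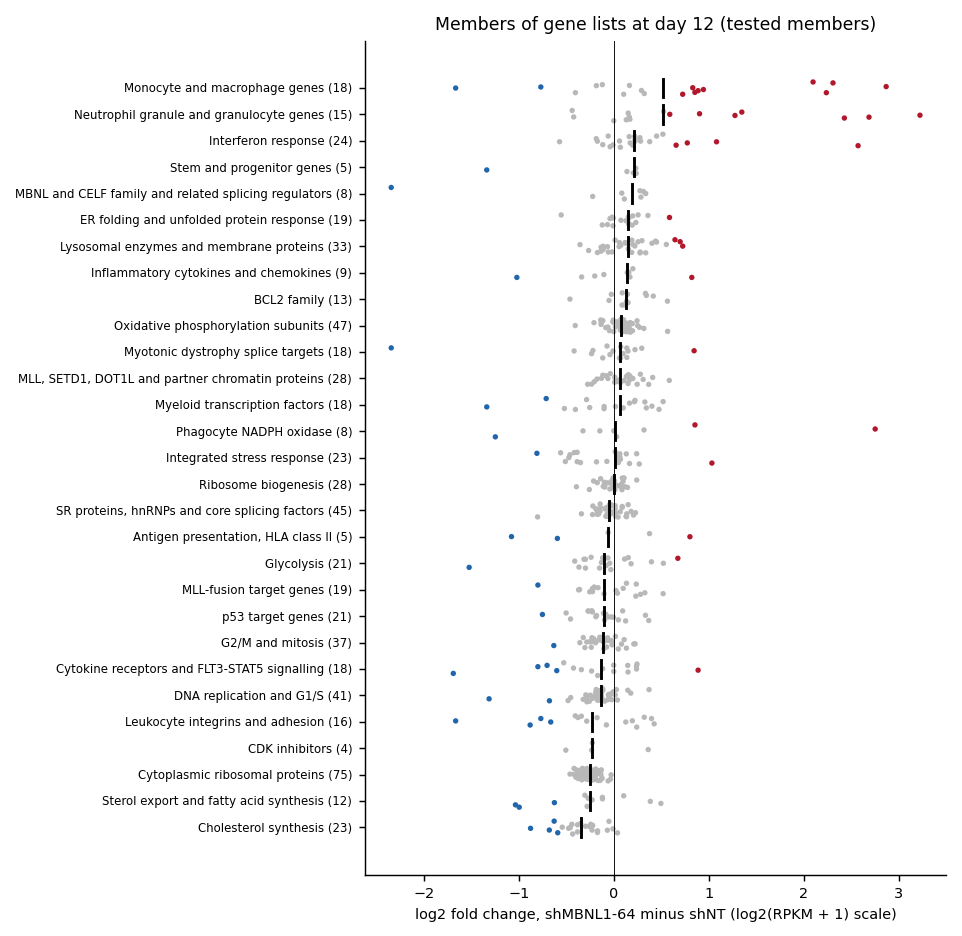
Log2 fold change (horizontal axis, shMBNL1-64 minus shNT) of every tested member of each gene list (rows, with the number tested), ordered by median. Red and blue points are members called higher and lower, and black bars are medians, which run from -0.35 for cholesterol synthesis to 0.52 for the monocyte and granulocyte lists.

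Splicing was read from PSI, a share between 0 and 1 of the reads over competing junctions. For cassette exons, introns and alternative 3′ and 5′ splice sites it was turned so that higher means more of the exon or intron. For the other types PSI was kept as deposited, so higher there means more of the junction examined and names no gain or loss. Of 22718 tested junction clusters 1086 (4.78%) met an unadjusted p of at most 0.01 and a PSI difference beyond 0.1, and 342 (1.51%) at an adjusted p under 0.05. The second count fell to 207 without the first shMBNL1-64 library and to 223, 184 and 220 without shNT library 1, 2 and 3 in turn. Cassette exon clusters were the most frequent. Of 7508 tested, 224 were called higher (2.98%) and 293 lower (3.9%). Of 5779 intron retention clusters 192 were called higher (3.32%) and 49 lower (0.848%), so that 79.7% of called introns were retained more. Alternative 3′ splice sites gave 24 and 38, alternative 5′ splice sites 26 and 37, alternative promoters 23 and 21, and alternative C-termini 19 and 9 clusters higher and lower.

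**Figure D3:**
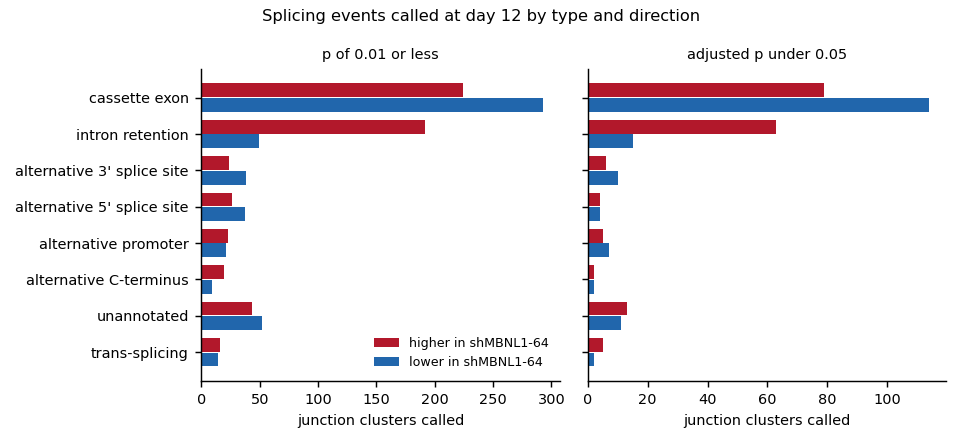
Number of junction clusters called (horizontal axis) for each event type (rows) by the rule at an unadjusted p of 0.01 or less (left) and at an adjusted p under 0.05 (right), both with a difference in PSI over 0.1. Red bars are higher and blue bars lower with shMBNL1-64. For promoters, C-termini, unannotated and trans-splicing events higher means more of the junction examined as deposited. Cassette exons lean lower (224 against 293) and introns higher (192 against 49).

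The exons of several strongly switched events are shown with the motif letters that MBNL1 is known to bind. Capitals mark the word CGCC and the word CGCT, along with the word TGCC and the word TGCT, on the transcribed strand, where words may overlap, and all sequences are from GRCh37, read 5′ to 3′. The first pair belongs to the 54-base exon of MBNL1 itself, chr3:152164493-152164546 on the plus strand, with the 60 bases before it at chr3:152164433-152164492. The exon is coding and is known to help send the protein to the nucleus.

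MBNL1 upstream intron: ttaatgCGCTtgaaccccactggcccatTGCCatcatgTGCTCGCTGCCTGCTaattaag

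MBNL1 exon: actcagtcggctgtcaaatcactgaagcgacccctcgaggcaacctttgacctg

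These 60 bases hold 6 motif starts, the 250 bases upstream hold 12 and the 250 downstream hold 0. Inclusion of this exon was 0.834, 0.852 and 0.938 with shMBNL1-64 and 0.0925, 0.0825 and 0.0903 with shNT (difference 0.786, SE 0.0307, adjusted p = 0.00304, limma). The exon went from nearly absent to nearly always included in the transcripts that remained. In a second event of the gene, an alternative C-terminus, the share of the junction to the more distant exon rose from 0.494 ± 0.0245 to 0.891 ± 0.00507 (n = 3 each). The corresponding 54-base exon of MBNL2 stood at 0.739, 0.63 and 0.8 against 0, 0 and 0.0741, and it passed with all libraries (adjusted p = 0.0187, limma) but not without the first knockdown library or any 1 of the shNT libraries.

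Among exons included more after knockdown are those of EXOC1 (45 bases, chr4:56755054-56755098, plus strand, coding) and NUMB (144 bases, chr14:73745989-73746132, minus strand, coding).

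EXOC1 exon: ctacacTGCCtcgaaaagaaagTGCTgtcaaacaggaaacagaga

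NUMB exon: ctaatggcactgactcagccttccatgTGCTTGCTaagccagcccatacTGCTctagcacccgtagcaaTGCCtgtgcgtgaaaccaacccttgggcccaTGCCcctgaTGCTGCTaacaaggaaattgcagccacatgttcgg

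EXOC1 encodes a subunit of the exocyst, which tethers secretory vesicles to the plasma membrane. Its exon was used at 0.805, 0.867 and 0.906 with shMBNL1-64 and at 0, 0.0391 and 0.00752 with shNT (difference 0.844, SE 0.0301, adjusted p = 0.00247, limma). NUMB encodes an endocytic adaptor that restrains Notch, and its exon, which holds 7 motif starts, rose to 0.825, 0.816 and 0.84 from 0.0903, 0.107 and 0.0766 (difference 0.736, SE 0.0107, adjusted p = 0.000191, limma). In both genes every knockdown library exceeded every control by more than 0.7. The 250 bases upstream and the 250 downstream held 2 and 3 motif starts for EXOC1, and 3 and 1 for NUMB. FGFR1, a receptor tyrosine kinase gene, gained a 267-base coding exon (0.962, 1 and 1 against 0, 0.05 and 0.0889) at a level of 0.542 ± 0.0644 against 1.34 ± 0.0512 RPKM, so few reads support it. FMNL3, a formin gene, gained a 153-base exon (0.987 ± 0.0228 against 0.177 ± 0.0726). TTC28 gained a 24-base exon (1, 0.941 and 1 against 0.375, 0.087 and 0.129), which just passed (adjusted p = 0.049, limma) and did not pass on an arcsine scale (TTC28 cassette exon E22.1-E23.2, adjusted p = 0.0538). This TTC28 exon had 7 motif starts in the 250 bases upstream and 8 in the 250 downstream.

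Exons lost after knockdown are represented by those of MDM1 (30 bases, chr12:68710361-68710390, minus strand) and BAZ2B (27 bases, chr2:160253585-160253611, minus strand), both coding, the former with the 60 bases that follow it at chr12:68710301-68710360.

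MDM1 exon: ggttctctaaaTGCCatgtggtaTGCTgag

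MDM1 downstream intron: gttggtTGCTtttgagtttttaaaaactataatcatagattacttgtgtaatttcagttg

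BAZ2B exon: gagttggagaggcatagactagatatg

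MDM1, which encodes a microtubule-binding protein of centrioles, used its exon at 0.0952, 0.087 and 0.1 against 0.897, 0.872 and 0.967 (difference -0.818, SE 0.0274, adjusted p = 0.00208, limma). It has 1 motif start in the 250 bases upstream and 7 in the 250 downstream. BAZ2B, a bromodomain protein gene, used its exon at 0.101, 0.127 and 0.0795 against 0.986, 0.982 and 0.971 (difference -0.878, SE 0.0136, adjusted p = 0.000238, limma), with 5 and 4 motif starts on the 2 sides and 0 within. The exon of PLD1, a phospholipase of vesicle traffic, fell the furthest, to 0.0139, 0.04 and 0.05 from 0.966, 0.967 and 0.966 (adjusted p = 0.000147, limma). The exons of CCDC88C, a regulator of Wnt and G protein signalling, and CIT, the citron kinase gene of cytokinesis, fell from 0.97 ± 0.0268 to 0.05 ± 0.0207 and from 0.915 ± 0.0328 to 0.0442 ± 0.0213 (n = 3 each). ACOT9, a mitochondrial thioesterase gene, lost a 27-base exon (0.111, 0.171 and 0.0945 against 0.914, 0.988 and 0.907). Motif starts in the 250 bases upstream and downstream numbered 2 and 3 for PLD1, and 3 and 3 for ACOT9.

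Length and reading frame of the called exons were described next. Among cassette exons whose borders are annotated, 62.3% of 199 included more and 59% of 271 included less had a length divisible by 3, beside 39.8% of 6336 that were not called. Under 100 bases were 43.7%, 48.3% and 36.8% of these sets, and median lengths were 108, 104 and 119 bases, while 66.3%, 64.6% and 67% were coding. The same motif, counted over its 4 words on the transcribed strand, stood at different sides of exons that were gained and lost. In the 250 bases upstream its mean density was 1.73 per 100 bases for exons included more, 1.38 for exons included less and 1.22 for exons not called. Downstream the order of the first 2 sets was reversed, with 1.4, 1.71 and 1.2 per 100 bases. At least 4 starts lay upstream of 52.3%, 38.7% and 35.2% of exons in the same order, and downstream of 38.7%, 50.9% and 34.1%. These are descriptions without a test, a motif match is not a measured site, and the motif holds G and C, so base composition moves with it.

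**Figure D4:**
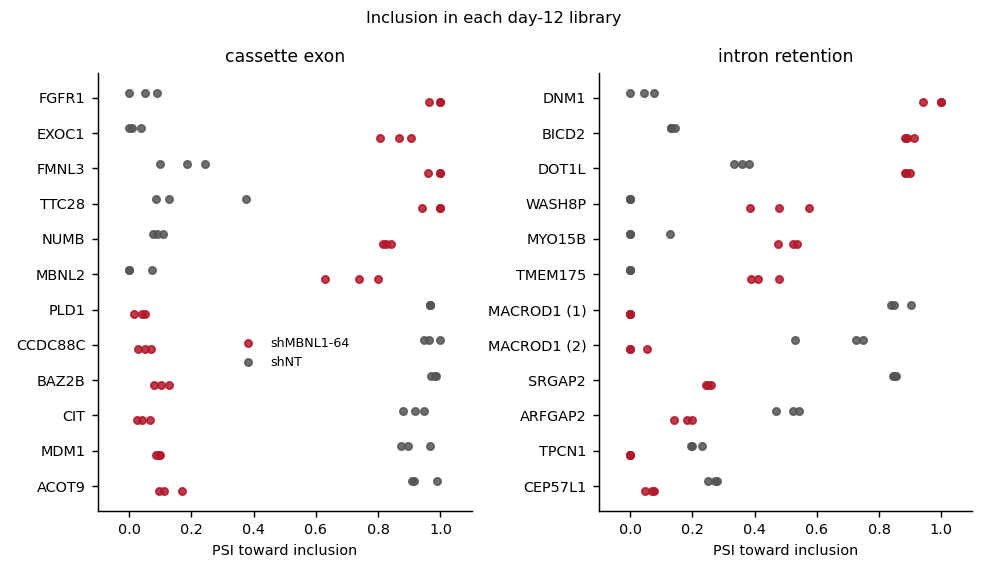
Inclusion (PSI, horizontal axis) in each library for the named cassette exons (left) and introns (right) with the largest differences, red for shMBNL1-64 and grey for shNT, 1 point a library. In every event shown the groups do not overlap, from FGFR1 and EXOC1 (gained) to MDM1 and ACOT9 (lost).

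Intron retention rose on average as well as among called clusters. Over the 24691 intron events measured in all 6 libraries mean inclusion was 0.119, 0.113 and 0.113 with shMBNL1-64 and 0.0993, 0.103 and 0.104 with shNT. The groups did not overlap, and 10549 events were higher and 5795 lower, although the median difference was 0. For 24160 cassette exon events the means were 0.612, 0.611 and 0.61 against 0.616, 0.618 and 0.617. In 3797 intron clusters the read boundary lies at an end of the spliced junction it is compared with, and there 92 were called higher and 26 lower. In the other 1982 the boundary lies inside that junction, so an exon within it could contribute, and there 100 were called higher and 23 lower. The lean toward retention was thus of like size in both kinds (78% and 81.3% of called clusters). Of 175 genes with an intron called higher and tested in expression, 14 were called higher and 3 lower, beside 3.27% and 2.25% of all tested genes, and their median log2 fold change was 0.09, beside 0.04 over all genes. For 42 genes with an intron called lower the median was 0.10, with 2 called higher and 4 lower in expression.

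DNM1, a dynamin gene, had the largest gain of an intron, at 1, 0.94 and 1 against 0.0769, 0.0448 and 0 (difference 0.94, SE 0.0283, adjusted p = 0.00152, limma), with the boundary at chr9:130986529-130986530 at the end of its own junction. BICD2, which links cargo to the dynein motor, stood at 0.913, 0.884 and 0.89 against 0.132, 0.143 and 0.133 (difference 0.76, SE 0.00911, adjusted p = 0.000147, limma). TMEM175, a lysosomal channel gene, rose from 0 in all 3 controls to 0.48, 0.387 and 0.412. An intron of DOT1L, the histone H3 lysine methyltransferase gene recruited by MLL fusions, stood at 0.884, 0.887 and 0.901 against 0.359, 0.333 and 0.383 (difference 0.532, SE 0.0145, adjusted p = 0.00111, limma). Its boundary, chr19:2227361-2227362, lies inside the compared junction chr19:2227126-2229784, so an exon within it could contribute. The boundaries of BICD2 and TMEM175 likewise lie inside their compared junctions. DOT1L expression was 17.8 ± 0.564 against 14.5 ± 1.01 RPKM, not a call at 1.5-fold. An intron of SETD1A, a histone methyltransferase gene, stood at 0.103, 0.153 and 0.124 against 0, 0 and 0.0408, which met the unadjusted rule but not the adjusted one (difference 0.113, adjusted p = 0.119, limma). WASH8P (0.575, 0.48 and 0.385 against 0 in all controls) belongs to a family of near-identical pseudogenes, so its reads are uncertain.

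Introns that were retained less were fewer. MACROD1, a mono-ADP-ribosylhydrolase gene, had 2 such events. The first fell to 0 in all 3 knockdown libraries from 0.837, 0.902 and 0.848 (adjusted p = 0.00071, limma), and the second to 0, 0 and 0.0556 from 0.75, 0.727 and 0.529 (adjusted p = 0.0432). At day 4 their differences were -0.333 and -0.0468. SRGAP2, a GTPase-activating protein gene with near-identical paralogs, fell to 0.25, 0.261 and 0.244 from 0.851, 0.845 and 0.856. ARFGAP2, a coatomer regulator and a known target of missplicing in myotonic dystrophy, fell to 0.175 ± 0.0293 from 0.511 ± 0.0379 (n = 3 each; adjusted p = 0.0203, limma). In SRGAP2, ARFGAP2 and the first MACROD1 event the boundary lies inside the compared junction, so a change of an exon within it could contribute. Both ARFGAP2 and the second MACROD1 event no longer passed at an adjusted p under 0.05 without any 1 of the libraries other than shNT library 3 (ARFGAP2 intron retention E6.3-E8.1, adjusted p up to 0.0918, and MACROD1 intron retention E12.3-E13.1, up to 0.154).

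Other event types held fewer large changes. PABIR2, which encodes a phosphatase inhibitor, switched an alternative 3′ splice site (0.984, 0.991 and 1 against 0.411, 0.331 and 0.412). SMARCB1, the core SWI/SNF subunit gene, switched an alternative 5′ splice site (0.112, 0.0937 and 0.0921 against 0.524, 0.51 and 0.484). In SCARB1, which encodes a receptor for high-density lipoprotein, an unannotated junction near the 3′ end fell to 0.064, 0.0809 and 0.064 from 0.863, 0.884 and 0.881 (difference -0.806, SE 0.00816, adjusted p = 0.000147, limma). All 3 events kept the groups apart. CD46, a complement regulator gene, lost a junction (0.0782 ± 0.0115 against 0.346 ± 0.00598), and MYL6, a myosin light chain gene, changed a 5′ splice site by a small but even amount (0.0581 ± 0.00342 against 0.183 ± 0.00559).

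Known targets of missplicing in myotonic dystrophy were taken as a list. Of 18 such genes with a tested event 12 (66.7%) had a called event, beside 10.2% of all 10030 genes, and all 12 also had an event at an adjusted p under 0.05. Among them were ARFGAP2, CAPN3, CLASP1, MBNL1, MBNL2, MTMR1, NFIX, NUMA1, NUMB, SOS1 and SPTAN1. The exon of NUMA1, a spindle pole gene, fell to 0.00838, 0.025 and 0.00481 from 0.502, 0.52 and 0.469. The 24-base exon of MTMR1, a lipid phosphatase gene, fell to 0.0517, 0.0204 and 0.02 from 0.76, 0.769 and 0.846 (adjusted p = 0.00176 for NUMA1 and 0.00253 for MTMR1, limma). In neither gene did expression reach a call. At the other end, 0 of 40 genes for SR proteins, hnRNPs and core splicing factors had a called event, and 0 of 45 were called in expression, with 3 higher and 10 lower at an adjusted p under 0.05.

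Genes the study had named for small GTPase signalling and vesicle traffic were chosen there from splicing after MBNL1 knockdown, so their counts are not independent evidence. Of 9 GTPase genes 7 had a called event, 4 of them at an adjusted p under 0.05, and of 11 trafficking genes 9 and 7. DNM2, the ubiquitous dynamin, used a 139-base exon at 0.97, 0.955 and 0.966 against 0.458, 0.444 and 0.462 (difference 0.509, SE 0.00657, adjusted p = 0.00016, limma) with an expression of 20.2 ± 0.764 against 19.5 ± 0.388 RPKM. ARHGAP17, a GTPase-activating protein gene, gained an exon (0.84 ± 0.00381 against 0.201 ± 0.0297). ARAP1, an ARF GTPase-activating protein gene, and ARHGEF1, a guanine nucleotide exchange factor gene, each lost 1 (0.15 ± 0.0133 against 0.817 ± 0.0236 and 0.0658 ± 0.0121 against 0.604 ± 0.0141). EXOC7, another exocyst subunit gene, fell from 0.675, 0.682 and 0.607 to 0.234, 0.242 and 0.233, and GOLGA2, a Golgi matrix gene, from 0.427, 0.339 and 0.432 to 0.0426, 0.0362 and 0.0874. RHOC (adjusted p = 0.606), DENND4B (0.372) and AAK1 (0.606) had no called event.

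Splicing and expression calls overlapped in a minority of genes. Of 8622 genes tested for both, 76 were called in both, which is 18.1% of the 420 expression calls and 8.34% of the 911 genes with a called event, beside 10.6% and 4.87% of all these genes. TSPOAP1, which encodes a scaffold at synapses and is expressed in myeloid cells, rose from 48.4 ± 0.977 to 119 ± 6.5 RPKM while an 840-base coding exon fell to 0.193, 0.191 and 0.151 from 0.99, 0.991 and 0.962 (adjusted p = 0.000487, limma). INF2, a formin gene, fell from 10.2 ± 0.286 to 5.99 ± 0.586 RPKM and its 57-base exon from 0.965, 0.904 and 0.866 to 0.11, 0.11 and 0.0189. LRCH4 fell from 26.1 ± 0.709 to 16.9 ± 0.706 RPKM while a 242-base noncoding exon rose (0.925, 0.91 and 0.898 against 0.282, 0.322 and 0.282). Others called in both were CCDC88C, RABGAP1L, MINDY3, OGDH, GPR137 and FGFR1.

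Most calls had the same direction at day 4. The earlier harvest, 3 libraries of the same hairpin and 3 of shNT, used other control libraries and another instrument, so the day and the platform cannot be told apart. Of the 557 called genes 534 (95.9%) had the same sign at day 4, beside 75.1% of all tested genes, and their median change in the day-12 direction was 0.62 at day 4 and 0.74 (absolute) at day 12. Of 1040 called clusters measured at both days 883 (84.9%) had the same sign, beside 57.3% of all, with a median difference of 0.111 at day 4 and 0.161 at day 12. Since the calls were made at day 12, the medians are given without a test.

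The difference between the responses was tested as an interaction over 12 libraries. Of 10583 genes 42 were called at p of 0.01 or less with a 1.5-fold difference (0.397%) and 4 at an adjusted p under 0.05 (0.0378%). Same-numbered libraries paired at day 4 but not at day 12, and with the replicate number as a block the counts were 163 and 103. CYBB rose further at day 12, where it stood at 23.3 ± 1.43 against 2.64 ± 0.499 RPKM, than at day 4, where it stood at 6.57 ± 0.596 against 2.12 ± 0.406 RPKM (interaction 1.47, SE 0.18, adjusted p = 0.0253, limma, and CYBB response at day 12 minus day 4 with the block, 0.0209). CEACAM4, a granulocyte adhesion molecule gene, was 9.29 ± 0.664 against 1.23 ± 0.323 RPKM at day 12 and 1.86 ± 0.498 against 1.22 ± 0.344 RPKM at day 4 (interaction 1.85, SE 0.23, adjusted p = 0.0253, limma). The adjusted gene count was 0 or 1 without any 1 library, except for 13 without day-4 shMBNL1-64 library 3 and 4 without day-4 shNT library 3.

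Of 20714 clusters 442 (2.13%) were called in the splicing interaction and 12 (0.0579%) at an adjusted p under 0.05, and 489 and 0 with the replicate number as a block. The intron of FCGRT, the neonatal Fc receptor gene, had the largest difference of the 12. It was retained at 0.785, 0.806 and 0.749 with shMBNL1-64 at day 4 against 0.0508, 0.0342 and 0.0474 with shNT, and at 0.0855, 0.103 and 0.125 against 0.0385, 0.0684 and 0.0401 at day 12 (interaction -0.68, SE 0.0222, adjusted p = 1.96e-05, limma; blocked adjusted p = 0.1). The retained intron of day 4 was thus near control at day 12. The FAAH intron, in a fatty acid amide hydrolase gene, went from 0.295 ± 0.0242 against 0 at day 4 to 0.156 ± 0.0203 against 0.168 ± 0.0235 at day 12. Without day-12 knockdown library 3 the adjusted count was 45, and it was 20 to 34 without any of the 3 day-4 knockdown libraries.

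**Figure D5:**
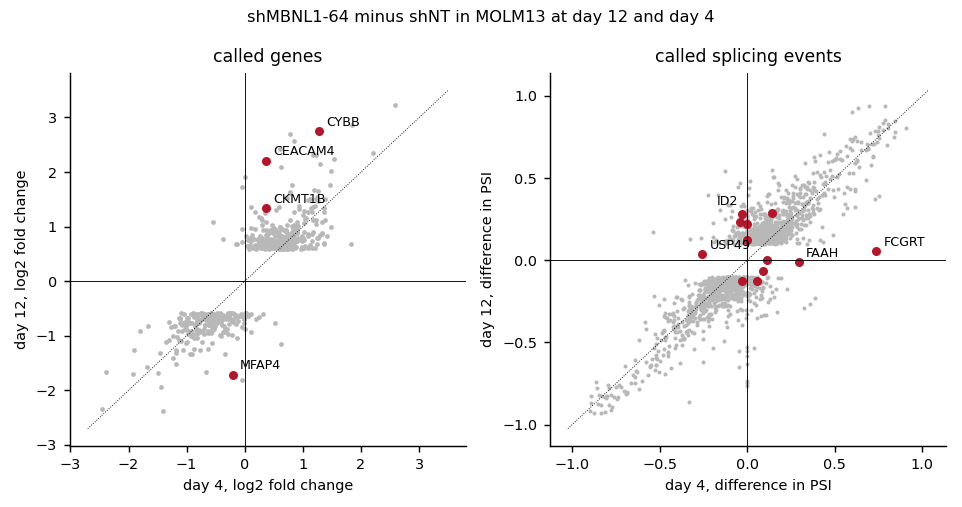
Differences between shMBNL1-64 and shNT at day 12 (vertical axis) and day 4 (horizontal axis) for genes called at day 12 (left, log2 fold change) and events called at day 12 (right, difference in PSI), with a dotted line of equality. Red points passed the interaction test at an adjusted p under 0.05 and are drawn whether or not they were called at day 12, among them CYBB, CEACAM4, CKMT1B and MFAP4 on the left and FCGRT, FAAH, ID2 and USP49 on the right.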

How the data were processed

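RNA was extracted and sequenced by the authors, who aligned reads with STAR to hg19 (GRCh37) and used AltAnalyze and MultiPath-PSI. They deposited RPKM for 22391 genes and PSI, a fraction of junction reads, for 100814 events in 29031 clusters, and both were used as deposited. A gene with no read is listed above 0 in the deposited RPKM, and 99.8 to 99.9% of low values lay on whole steps (within 0.05 of a step), so only relative depth could be read and the count test was not run. RPKM divides by gene length and total reads, so a few abundant genes can shift all others. Symbols came from a table of gene names and the GENCODE annotation lifted to GRCh37, in which 19445 genes matched by ID, and 2300 genes were left with none.

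Groups were taken from the sample labels. Genes (log2(RPKM + 1), mean of at least 1 RPKM in either group) and events (with a PSI in over 50% of each group) were fitted over the 6 libraries, or 12 for the interaction, with moderated tests in limma 3.58.1 (R 4.3.3), two-sided, adjusted by Benjamini-Hochberg over all features. Each cluster is represented by its called event of smallest p or, where none was called, by its event of smallest p. A cluster therefore counts as called if any of its events passed, and the 22718 clusters hold 79184 tested events. The p-values given as adjusted are from these fits. Scripts were tested on simulated data. Sequences were read with pysam 0.24.0 under Python 3.11.15 (numpy 2.4.6, pandas 2.3.3), and figures drawn with matplotlib 3.10.9.

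The comparison, gene lists and tests were chosen with earlier results of these data known. Named are MBNL genes and genes the study names, the 15 largest rises and falls with a symbol, up to 6 members of each list with the smallest p, the 6 largest changes per event type and direction, the 10 largest exon changes among genes called in both, and interaction calls, and other list members by their counts. Some genes this rule selects are not reported here. Same-numbered libraries at day 12 did not deviate together (r -0.121, -0.0534 and -0.0665), while those at day 4 did (r 0.845, 0.796 and 0.881), as judged from the data since the labels state no pairing. Alternatives were the pseudocount, the filter, scaling, prior trend, spread over all 28 libraries, thresholds, the event that represents a cluster, events measured in all libraries, the arcsine scale, the replicate block and each library left out.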

Additional observations from a re-analysis of the deposited data

Results flagged for a closer look

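Genes and events listed here responded differently at day 12 and at day 4 by the interaction test at an adjusted p under 0.05 (limma), and the day and the sequencing platform cannot be told apart. Among genes, the log2 fold change at day 12 minus that at day 4 was 1.85 for CEACAM4, 1.47 for CYBB and -1.50 for MFAP4. MFAP4 was hardly detected at day 4 in either group (0.0468 ± 0.0372 and 0.221 ± 0.216 RPKM), but stood at 1.06 ± 0.136 against 5.72 ± 0.412 RPKM at day 12, so its control level changed between harvests. CKMT1B, a mitochondrial creatine kinase gene whose paralog CKMT1A is near identical, gave 0.97, with 1.77 ± 0.164 against 0.0919 ± 0.0383 RPKM at day 12. With the pseudocount at 0.1 RPKM CEACAM4, CYBB and MFAP4 no longer passed, and CKMT1B did.

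Among introns the difference of differences in PSI was -0.68 for FCGRT, 0.31 for ID2, which encodes an inhibitor of helix-loop-helix factors (0.308, 0.238 and 0.304 against 0 at day 12), and -0.307 for FAAH. It was 0.222 for HEATR5B, 0.122 for RNF213, -0.181 for YBX3 and -0.11 for RELT. In the intron of HEATR5B and that of RNF213 every value but the 3 day-12 knockdown values was 0. For exons it was 0.292 for USP49, 0.149 for MLST8, a subunit gene of the mTOR complexes, -0.156 for IKBKG and -0.1 for an exon of ARHGEF1. It was 0.271 for an alternative promoter of MSANTD3. None of these 12 events passed with the replicate number as a block.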

How the results depend on the processing

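Counts of calls moved as follows. With a pseudocount of 0.1 RPKM 870 genes were called, 532 of them higher, and 889 at an adjusted p with 1.5-fold. Requiring a mean of 5 RPKM left 315 (175 higher, 140 lower; 315 at an adjusted p). The spread of all 28 libraries gave 145 lower, 286 at an adjusted p with 1.5-fold and 485 at any size, and 146 of 211 named genes no longer passed at an adjusted p under 0.05. A difference over 0.2 left 461 clusters, 204 at an adjusted p, with exons at 102 and 146 and introns at 85 and 18 higher and lower. Introns whose boundary is that of their own junction, an alternative added after seeing the data, gave 92 and 26. For the gene interaction the pseudocount of 0.1 gave 64 calls and 1 at an adjusted p.

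With the replicate block the day-12 numbers do not pair, and it lowered the adjusted splicing count to 6 while called clusters were 858 and called genes 560. In the interactions it gave 163 genes, 103 at an adjusted p, and 0 clusters at an adjusted p. It left 13 of 104 named events on their side of the adjusted threshold.

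Without 1 library, ranges were 530 to 608 genes (317 to 374 higher, 205 to 238 lower), 532 to 615 at an adjusted p with 1.5-fold, 4140 to 4837 at any size, 944 to 1019 clusters, 184 to 274 at an adjusted p, 178 to 217 and 247 to 268 exons, 159 to 232 and 40 to 61 introns, 35 to 118 genes in the interaction (0 to 13 adjusted) and 394 to 535 clusters (11 to 45 adjusted). Rescaling turned the sign of DNM2 expression (-0.0025), AAK1 expression (-0.03) and SETD1A expression (-0.04) on the log2 scale. Leaving out 1 library turned ARHGEF1 expression (-0.05 to 0.01), DENND4B expression (-0.05 to 0.05), AAK1 expression (-0.0039 to 0.02, with -0.0019 without the second knockdown library), SETD1A expression (-0.04 to 0.05, with -0.01 without the third shNT library), HLA-DMA expression (-0.13 to 0.01) and GP9 expression (-0.34 to 0.04). No adjusted p of a turned value was under 0.05. The cause of these shifts was not tested. Absolute depth is unknown, so PSI values of scarce transcripts such as FGFR1 carry an error that 3 libraries show only in part.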
